A study of Arabidopsis thaliana with 26 samples.

Results

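Root transcripts of Arabidopsis thaliana were compared between plants given KNO3 and plants given KCl for 3 min, on 4 ATH1 arrays of a series of 26. The members were chosen by their labels, as the 2 KNO3 arrays and the 2 KCl arrays of 3 min, and no measured value entered the choice. The plants were ecotype Columbia, grown hydroponically for 14 days with ammonium succinate as the nitrogen source and then kept without nitrogen for a day before transfer to medium with one or the other salt at the same concentration. Both groups therefore received potassium, and they differed in the anion, nitrate or chloride. Untreated roots (time 0, 2 arrays) and roots of 6, 9, 12, 15 and 20 min with each salt (2 arrays per salt and time) made up the rest of the series. Each array measured RNA of whole roots, so a change in one cell layer and a change in the share of that layer cannot be told apart. The study describes the 2 arrays of a group as biological replicates.

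Nitrate is both the main nitrogen source of most plants and a signal. In roots it is taken up by the NRT1/NPF and NRT2 transporters and reduced by nitrate reductase and nitrite reductase, and the genes for these proteins are well known to be induced within minutes to hours of nitrate supply, which is called the primary nitrate response. The comparison at 3 min addressed what changes before that response. KCl served as the mock treatment, so a gene called higher with KNO3 may have been raised on the KNO3 arrays or lowered on the KCl arrays, and the levels on the other arrays show which of the pair stood apart.

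The values were MAS5 signals, a linear measure of brightness per probe set. Their 2% trimmed mean was 500 on each array. The 8 arrays of 3 and 6 min had brighter hybridisation controls than the other 18, with a mean log2 signal of the bacterial spike-in probe sets of 12.55 to 13.38 against 10.01 to 11.21, and the log2 ratio of 3′ to 5′ GAPDH signal was 1.00 to 1.54 against -0.06 to 0.70. The spread was therefore estimated within these 8 arrays, and levels at time 0 and from 9 min on are given without a test against them. Replicate arrays were no more alike than some arrays of different groups. Across probe sets the log2 signals correlated with r = 0.924 for the KCl pair and 0.932 for the KNO3 pair of 3 min. Between the salts at 3 min r was 0.921 to 0.927, and between arrays of different groups it reached from 0.906 to 0.937. Of the markers, EXPA7 and EXPA18, expansins of root hair cells, read 945 and 1038 (EXPA7) and 647 and 637 (EXPA18) with KCl and 1235 and 1104 and 772 and 1029 with KNO3. Their summed signal was 1593 and 1675 with KCl and 2007 and 2132 with KNO3, without overlap. Of all probe sets, 15.6% had the KNO3 pair above the KCl pair without overlap. Neither gene passed in limma (adjusted p = 0.75 for EXPA7 and 0.70 for EXPA18), and the part of their signal in the calls was not tested. They were the only 2 genes measured of the 28 in the list of root hair and epidermis markers. The summed signal of 9 probe sets of photosynthesis genes was 1503 and 1567 on the KCl arrays and 1332 and 1845 on the KNO3 arrays.

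At 3 min the salts differed for 27 of 22746 probe sets, or 0.119%, by limma with Benjamini-Hochberg adjustment at 0.05. Of these, 18 were lower with KNO3 (0.0791%) and 9 were higher (0.0396%). The log2 differences of the calls ran from -2.41 to -1.02 for the falls and from 1.07 to 2.25 for the rises. Over all probe sets the median log2 difference was -0.03, and 47.1% lay above 0. An unadjusted p under 0.05 was reached by 1882 probe sets, against 1137 for a uniform spread of p-values. A single gene was listed for 14 of the calls, 3 higher and 11 lower, while 12 had no gene in the annotation used here and 1 matched several. For each of the 27 the signals of the KNO3 pair did not overlap those of the KCl pair. Of all probe sets 15.6% had the KNO3 pair above the KCl pair without overlap, and 19.4% had it below.

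**Figure D1:**
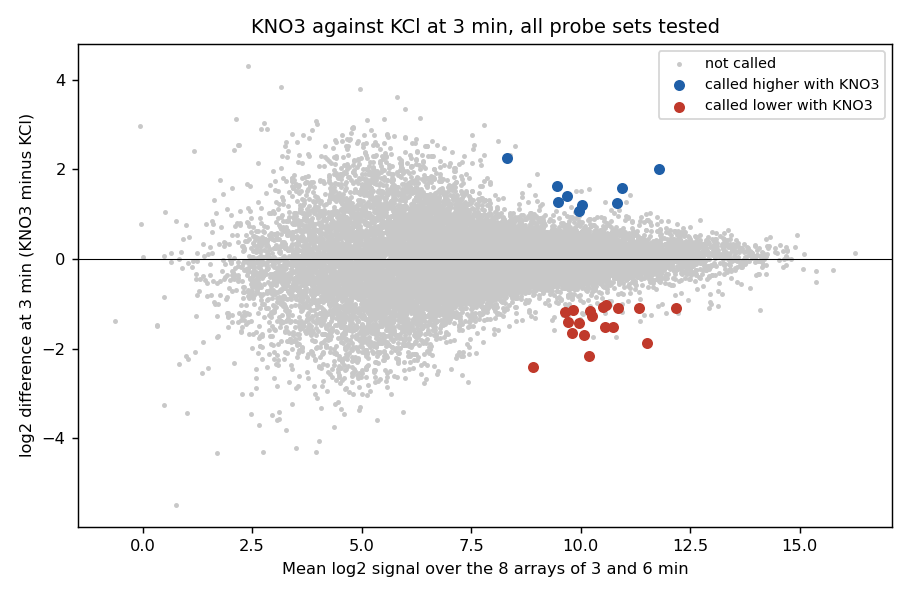
Each point is 1 probe set, with its mean log2 signal over the 8 arrays of 3 and 6 min on the horizontal axis and the log2 difference at 3 min, KNO3 minus KCl, on the vertical axis. The 27 calls lie between log2 differences of -2.41 and 2.25, and all are brighter than a signal of 172, the 40th percentile.

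The number of calls changed with single arrays and with how the spread was estimated. Leaving out an array of 3 min left that group with 1 array, which was assumed to vary like the other groups. Without KNO3 replicate 1 or without KNO3 replicate 2 no probe set passed in limma (2075 and 1266 at an unadjusted p under 0.05), without KCl replicate 2 there were 2 calls, and without KCl replicate 1 there were 147. Without KCl 6 min replicate 1 there were 9 calls and without KCl 6 min replicate 2 there were 13. With a prior that did not depend on brightness no probe set passed in limma (1577 at an unadjusted p under 0.05). With the spread taken over all 26 arrays 518 passed, 26 of the 27 among them, and a sequential linear model on the linear signals of all 26 arrays, rebuilt from the methods, called 938, with 21 of the 27 among them. The methods do not give the coding of time 0 in full, so the rebuilt model may differ from the one the study ran. The direction held for each of the 14 genes under all 15 alternatives that gave a log2 difference. Of these only quantile normalization could have turned it. Changes of prior, block, spread, dim filter or 6 min arrays left the log2 difference as it was. The pairs did not overlap, so an offset or a left-out array of 3 min could not turn the sign. Over the 15 alternatives the log2 difference of BCAT4 ran from 1.44 to 1.72, that of GSTU25 from -1.78 to -1.61 and that of AT1G52060 from 1.44 to 2.56.

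The gene with the lowest p was BCAT4, a branched-chain aminotransferase known for the step that starts methionine chain elongation in the synthesis of glucosinolates. Its signal was 751 and 910 on the KCl arrays and 2267 and 2708 on the KNO3 arrays of 3 min. BCAT4 was thus 3.00-fold higher with KNO3, with a log2 difference of 1.58 ± 0.19 (SE, n = 2 per group, adjusted p = 0.016). At time 0 it was 2067 and 2222, so that the KNO3 arrays were near the untreated level and the KCl arrays below it. At 6 min BCAT4 read 2400 and 2801 with KCl and 2384 and 3232 with KNO3, and these groups overlapped.

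AT1G52060 was the rise of largest size among the calls with a single gene. It read 2042 and 941 with KCl against 6359 and 4846 with KNO3, a log2 difference of 2.00 ± 0.32 (adjusted p = 0.048). It is one of 15 loci that the study singled out as early or transient on these same samples, so its call is not independent evidence. The study also measured these loci by QPCR, with a further replicate that was not put on arrays. AT3G49190 read 370 and 217 with KCl and 833 and 935 with KNO3, a log2 difference of 1.64 ± 0.25 (adjusted p = 0.047). At 6 min with KCl AT1G52060 stood at 3077 and 4628 and AT3G49190 at 926 and 1029, each above both KCl arrays of 3 min.

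Among the falls, GSTU25, a glutathione S-transferase of the tau class, which join glutathione to foreign or toxic compounds, had signals of 2112 and 2225 with KCl and 711 and 631 with KNO3. The log2 difference was -1.69 ± 0.20 (adjusted p = 0.016). GSTU25 stood at 570 and 567 at time 0 and between 693 and 1314 on the 4 arrays of 6 min, so the pair that stood apart was that of KCl. AT5G64120, which encodes peroxidase 71, a class III peroxidase of the kind that uses hydrogen peroxide in the cell wall, read 1478 and 1867 with KCl and 593 and 668 with KNO3, with a log2 difference of -1.40 ± 0.19 (adjusted p = 0.027). For this gene the untreated roots, at 1660 and 1499, were near the KCl arrays instead, while the 4 arrays of 6 min lay between 527 and 796.

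The fall of largest size was that of AT1G72060. Its signal was 2045 and 1542 with KCl and 443 and 251 with KNO3, a log2 difference of -2.41 ± 0.30 (adjusted p = 0.016), against 184 and 95.9 at time 0 and 227 to 347 at 6 min. AT2G38870 reached the highest signal of the named falls, 6700 and 11303 with KCl against 2366 and 2379 with KNO3 (log2 difference -1.88 ± 0.28, adjusted p = 0.039). Its KCl arrays differed from each other by more than the KNO3 arrays did. AT1G72800 read 2196 and 1669 with KCl and 607 and 620 with KNO3, with a log2 difference of -1.64 ± 0.20 (adjusted p = 0.016). AT1G05060 read 1888 and 2002 with KCl and 810 and 645 with KNO3, with a log2 difference of -1.43 ± 0.17 (adjusted p = 0.016). Both loci were near or below their KNO3 level at time 0, at 360 and 330 for AT1G72800 and 634 and 690 for AT1G05060.

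The 5 remaining falls with a single gene differed by 2.40-fold or less. AT4G20830 read 2317 and 2521 with KCl and 1077 and 938 with KNO3 (adjusted p = 0.016). AT2G15220 read 3603 and 4738 with KCl and 1898 and 1970 with KNO3 (adjusted p = 0.048), from a probe set whose design allows matches to related transcripts. AT5G64250 read 2258 and 2421 with KCl and 1186 and 1114 with KNO3 (adjusted p = 0.037). For these 3 loci both KCl arrays lay above every other array of 3 and 6 min. AT1G26240 did likewise, at 2218 and 2598 with KCl and 1264 and 1046 with KNO3 (adjusted p = 0.048). AT2G20920 was the exception. It read 970 and 1058 with KCl and 486 and 412 with KNO3 (adjusted p = 0.037), and at 6 min 878 to 1066 with either salt, so that here the KNO3 pair stood apart, near the 513 and 496 of untreated roots.

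**Figure D2:**
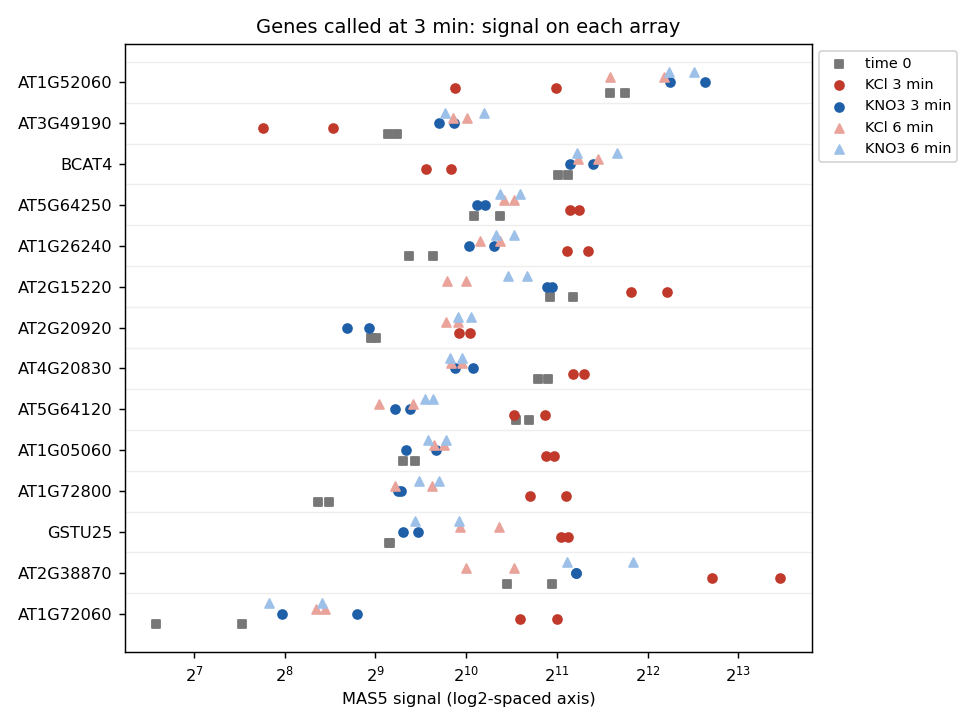
The MAS5 signal, on a log2-spaced axis, of the 14 named calls on each array of time 0 (grey squares), 3 min (circles) and 6 min (triangles), with KCl in red and KNO3 in blue. The 2 KCl arrays of 3 min lie outside the other 6 arrays of 3 and 6 min for all genes but AT2G20920.

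Counted over all 27 calls, the KCl pair of 3 min lay outside the range of the other 6 arrays of 3 and 6 min for 25, above it for 17 of the 18 falls and below it for 8 of the 9 rises. The KNO3 pair lay outside the other 6 for 4 calls, 2 of which were among the 25. For all probe sets these shares were 11.4% for the KCl pair and 8.44% for the KNO3 pair. The calls were chosen on the difference between these pairs, so that a pair standing apart is part of the choice, and the counts describe only which of them it was. The mean log2 signal at time 0 was nearer to that of the KNO3 arrays for 23 of the 27, 15 of the falls and 8 of the rises. The same share over all probe sets was not counted, and the time 0 arrays are among those with dimmer spike-ins. This count is therefore only descriptive.

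The KCl arrays of 3 min also stood apart when each salt was compared between 3 and 6 min, 2 contrasts added after the values were seen. With KCl, 88 probe sets differed between 3 and 6 min (0.387%), 72 higher and 16 lower at 3 min, and with KNO3 15 did (0.0659%), 13 higher and 2 lower. These contrasts use the same arrays as the comparison of the salts and are not separate evidence. Control signals moved with the salt at 3 min. The 25S rRNA control had a log2 signal of 14.73 and 14.97 on the KCl arrays and 14.14 and 14.29 on the KNO3 arrays, and the mean of the spike-ins was 12.84 and 13.19 against 12.55 and 12.80. Their part in the calls was not tested.

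The 12 calls with no gene listed and the 1 with several had log2 differences of 1.07 to 2.25 for the 6 rises and -2.17 to -1.08 for the 7 falls. The rise of 2.25 was that of probe set 262728_at, at 73.8 and 103 with KCl and 405 and 425 with KNO3. The fall of -2.17 was that of 253505_at, at 3195 and 3405 with KCl and 624 and 862 with KNO3. Both are named by the ID of the array, since no gene was assigned here.

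The adjusted p of 0.053 just outside the threshold belonged to AT1G71140, whose log2 difference of -2.75 ± 0.44 was larger than that of any call, at signals of 329 and 345 with KCl and 39 and 64.1 with KNO3. Of the 12 largest rises and 12 largest falls with a single gene, an unadjusted p under 0.01 and arrays that did not overlap, 9 and 7 did not pass. AT5G44400 had the largest of these rises, with 37.6 and 198 on the KCl arrays and 505 and 572 on the KNO3 arrays (adjusted p = 0.17). GLR3.3, a glutamate receptor-like channel known to carry calcium in wound signals, read 33.5 and 159 with KCl and 406 and 280 with KNO3 (log2 difference 2.21, adjusted p = 0.31). AT5G58100 read 69.0 and 54.3 against 397 and 317 (adjusted p = 0.11), and AT3G29970 read 7854 and 8499 against 3034 and 1999 (adjusted p = 0.27). On the log2 scale the KCl mean of each of these 4 lay farther from the untreated mean than the KNO3 mean did.

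At the next time point most of the calls differed less between the salts. They were chosen for large differences at 3 min, so smaller ones at another time are partly built into the choice. At 6 min 3 probe sets were called between the salts (0.0132%), and 1 of the 27 was among them, 254098_at, with the opposite sign. The median log2 difference of the 18 falls was -1.33 at 3 min and 0.10 at 6 min, and that of the 9 rises was 1.41 and 0.40. At 6 min 6 of the falls still lay below 0 and 7 of the rises above it, beside 44.8% of all probe sets above 0. For 9 of the 14 named genes the signals of the salts overlapped at 6 min. The share of all probe sets that overlapped at 6 min was not counted. At 3 min 15.6% of all had the KNO3 pair above without overlap and 19.4% had it below.

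The difference between the times was itself tested, as the KNO3 minus KCl difference at 3 min less that at 6 min. It passed for 10 probe sets (0.044%), 5 of them called at 3 min, and in all 10 the sign was opposite at the 2 times. Leaving out single arrays moved this count between 2 and 26. AT2G38870 went from -1.88 at 3 min to 1.22 at 6 min (adjusted p of the difference 0.023), where it read 1472 and 1019 with KCl and 2217 and 3668 with KNO3. AT2G15220 went from -1.10 to 0.67 (adjusted p = 0.037). The largest change was that of 254098_at, from 1.26 to -4.08, as its KNO3 arrays fell from 4636 and 5063 at 3 min to 221 and 288 at 6 min while those of KCl went from 2016 and 2028 to 4425 and 4116.

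**Figure D3:**
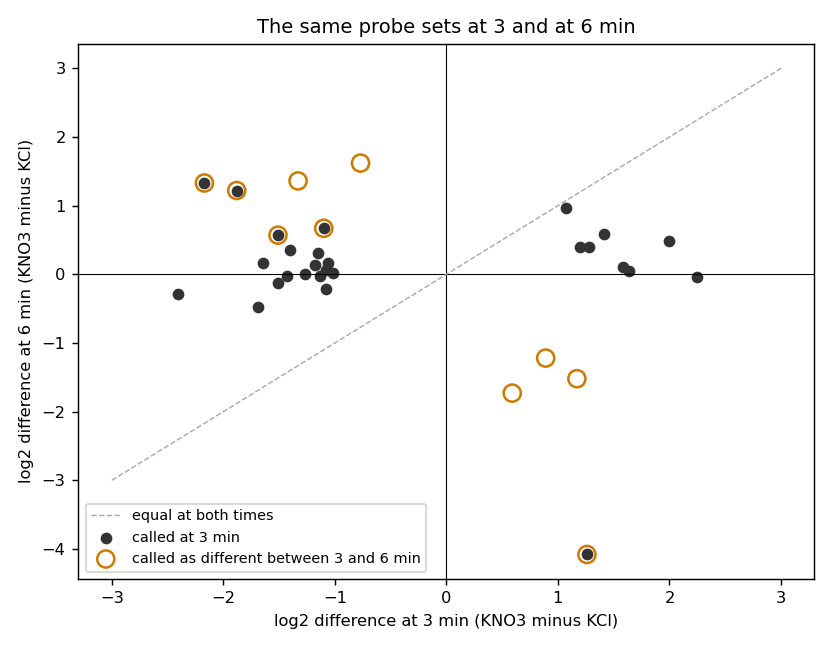
The log2 difference of KNO3 minus KCl at 3 min (horizontal) and at 6 min (vertical) for the 27 probe sets called at 3 min (filled points) and the 10 whose difference changed between the times (open circles). Most filled points lie near 0 at 6 min, and the lowest point is 254098_at at -4.08.

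From 9 to 20 min, in a fit of those 16 arrays alone, 109 probe sets passed between the salts at 9 min (0.479%), 361 passed at 12 min (1.59%), 408 passed at 15 min (1.79%) and 224 passed at 20 min (0.985%). Of the 27 calls of 3 min, 8 passed at 15 min, 5 of them in the direction of 3 min and 3 in the opposite one. Those that passed at 12 min (2) and at 20 min (1) had the opposite direction, and 0 passed at 9 min in limma. An unadjusted p under 0.05 at 9 min was nevertheless reached by 21 of the 27, 19 of them in the direction of 3 min, beside 10.2% of all probe sets. The count for 15 min was 15, 12 of them in the direction of 3 min, beside 14.3%. For 6 min it was 9 (4.53% of all), for 12 min 10 (16.5%) and for 20 min 6 (8.72%), and of these 4, 5 and 2 had the direction of 3 min. None of these arrays was used to choose the calls, apart from the share of those of 6 min in the spread. The medians of the falls and of the rises were -0.51 and 0.72 at 9 min. At that time 16 of the 18 falls lay below 0 and all 9 rises above 0, beside 42.1% of all probe sets above 0. The medians were 0.00 and 0.10 for 12 min, -0.18 and 0.78 for 15 min, and 0.01 and -0.32 for 20 min. These counts were made after the values had been seen. The summed signal of the photosynthesis genes was 10262 on KNO3 replicate 1 of 15 min and 1407 on replicate 2. On the KCl arrays of 15 min it was 1133 and 1089. At 12 min it was 1395 on KNO3 replicate 1 and 5165 on replicate 2. The part of these arrays in the differences was not tested. BCAT4 was again higher with KNO3 at 15 min, at 3525 and 2215 against 946 and 942 (log2 difference 1.57, adjusted p = 0.0054). GSTU25 was again lower with KNO3 at 15 min, at 760 and 657 against 1645 and 1683 (log2 difference -1.24, adjusted p = 0.00042). AT5G64120 went the other way at 15 min and was higher with KNO3, at 2263 and 2146 against 1090 and 1324 (log2 difference 0.88, adjusted p = 0.019). At 20 min GSTU25 was higher with KNO3 as well, at 1045 and 1240 against 593 and 641 (log2 difference 0.88, adjusted p = 0.0059).

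On the KCl arrays the level of the called genes went up and down along the course. BCAT4 with KCl had signals of 1153 and 710 at 9 min and of 946 and 942 at 15 min. It had 1557 and 1916 at 12 min and 2718 and 2933 at 20 min. It was thus low at 3, 9 and 15 min and higher at 6, 12 and 20 min, while with KNO3 it stayed between 1464 and 3525 on all 12 arrays. AT1G72060 with KCl had 251 and 819 at 9 min and 164 and 439 at 15 min, but 104 and 120 at 12 min and 83.0 and 58.7 at 20 min. Of the 18 falls, 15 had KCl means at both 9 and 15 min above those at 12 and 20 min, and of the 9 rises 6 had them below. Among all probe sets brighter than the 40th percentile 20.4% were above in this way and 19.8% below. With KNO3, 6 of the 18 falls and 1 of the 9 rises moved in these directions, beside 14.2% above and 12.9% below among the same bright probe sets. This order was noticed in the data before it was counted, it is given with no test, and the arrays of 9 to 20 min were not used to choose the calls.

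**Figure D4:**
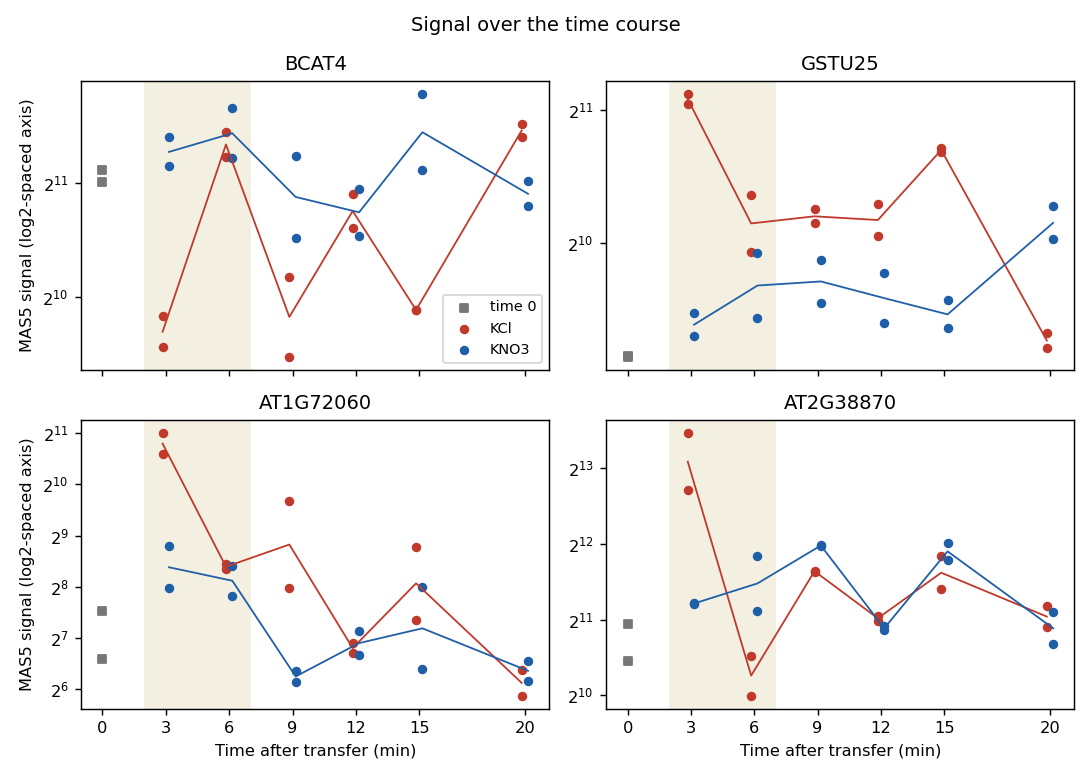
The MAS5 signal, on log2-spaced axes, of BCAT4, GSTU25, AT1G72060 and AT2G38870 against time after transfer, with each array as a point, KCl in red, KNO3 in blue, lines through the geometric means and time 0 as grey squares. The shaded arrays of 3 and 6 min have brighter spike-ins than the rest, and BCAT4 with KCl is low at 3, 9 and 15 min.

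Of 33 nitrate transport and reduction genes in the list, only 3 had a probe set with a single listed gene. Of these 0 were called (0 also at an unadjusted p under 0.05 in limma). None of the 3 encodes nitrate or nitrite reductase, and the other genes of the list were not examined. NRT2.5, a high-affinity nitrate transporter known from nitrogen-starved roots, read 2318 and 4313 with KCl and 3160 and 3650 with KNO3, a log2 difference of 0.10 ± 0.30 (adjusted p = 0.96). AT3G21670, which encodes NPF6.4, read 413 and 482 against 574 and 489, and AT2G26690, which encodes NPF6.2, read 53.6 and 130 against 132 and 69.7. The salts overlapped for NRT2.5 and AT2G26690.

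Of the 15 loci that the study named as early or transient, 7 had a probe set with a single gene. AT1G52060 was the only one called, beside 0.119% of all probe sets, and the study chose these loci on the same samples. It named them for a transient or very early response along its time course, not for a difference at 3 min. Of the 7, AT1G52060 is also the only locus in the study's own list of genes regulated at 3 min. The lack of a call for the other loci is therefore no departure from that list. AT1G64370 read 1538 and 956 with KCl and 1945 and 1796 with KNO3 (log2 difference 0.62 ± 0.21, adjusted p = 0.43). AT1G49000 read 107 and 97.6 against 162 and 178 (log2 difference 0.73 ± 0.77, adjusted p = 0.87). For both, the KNO3 arrays lay above the KCl arrays, as they did for 15.6% of all probe sets. BAT1, AT3G25790, AT2G27830 and AT1G27900 had log2 differences of 0.22, -0.42, -0.04 and 0.04, and their signals overlapped between the salts.

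In the list of reactive oxygen and redox genes 2 of 28 probe sets were called, GSTU25 and AT5G64120, both lower with KNO3, beside 0.0791% of all probe sets called lower. The median log2 difference of the list was -0.01, beside -0.03 for all probe sets, and 14 of the 28 lay above 0. Within the tau class of glutathione S-transferases the members differed in sign. GSTU20 read 155 and 251 with KCl and 480 and 620 with KNO3 (log2 difference 1.47, adjusted p = 0.25), opposite to GSTU25, and GSTU28 had a log2 difference of 0.69 ± 0.15 (adjusted p = 0.16).

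No other list with a measured probe set had a called member, and in each of those with 5 or more members lay on both sides of 0. Some lists had 0 measured probe sets and could not be examined. Among them were cytosolic ribosomal proteins (31 genes), nitrate response regulators (30) and ammonium and amino acid assimilation (29). The 38 probe sets of cell wall genes had a median of -0.09, with KNO3 above KCl without overlap for 11 and below for 6, where all probe sets gave 15.6% and 19.4%. Of the cell wall genes, XTH26 encodes a xyloglucan endotransglucosylase, which cuts and rejoins wall xyloglucan. It read 29.8 and 90 with KCl and 195 and 239 with KNO3 (log2 difference 2.06, adjusted p = 0.41 in limma). Its mean signal over the 8 arrays of 3 and 6 min was below the 40th percentile. The 51 probe sets of UGT glycosyltransferases, which attach sugars to hormones and other small molecules, had a median of -0.13, with 9 above and 16 below without overlap, beside the same 15.6% and 19.4%. UGT73C7 read 93.1 and 75.7 against 9.64 and 17.9 (adjusted p = 0.36), at signals below the 40th percentile. The auxin list (15 probe sets) had a median of -0.22, the cytochrome P450 list (22) -0.01, the calcium list (16) -0.01 and the list of WRKY and NAC factors (8) -0.04. Brighter than the 40th percentile were 4, 8, 9 and 6 of these probe sets, in the same order.

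Of the lists of markers and reference genes, the 8 reference probe sets had a median of 0.25, with 4 above and 2 below without overlap (15.6% and 19.4% of all probe sets). TUB1, a beta-tubulin, read 629 and 491 with KCl and 1108 and 1200 with KNO3 (log2 difference 1.05, adjusted p = 0.057), whereas TUA1, an alpha-tubulin, had a log2 difference of -0.54 ± 0.30 (adjusted p = 0.68). The 3 probe sets of touch and wound response, STZ, WRKY6 and WRKY53, had a median of -0.28, and STZ, a zinc finger factor that is induced by many stresses, read 936 and 1256 against 788 and 759 (adjusted p = 0.55). The root hair markers had a median of 0.36 and the photosynthesis genes of 0.20. The single root cap and meristem marker, CR4, read 19.7 to 54.0 on the 4 arrays.

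**Figure D5:**
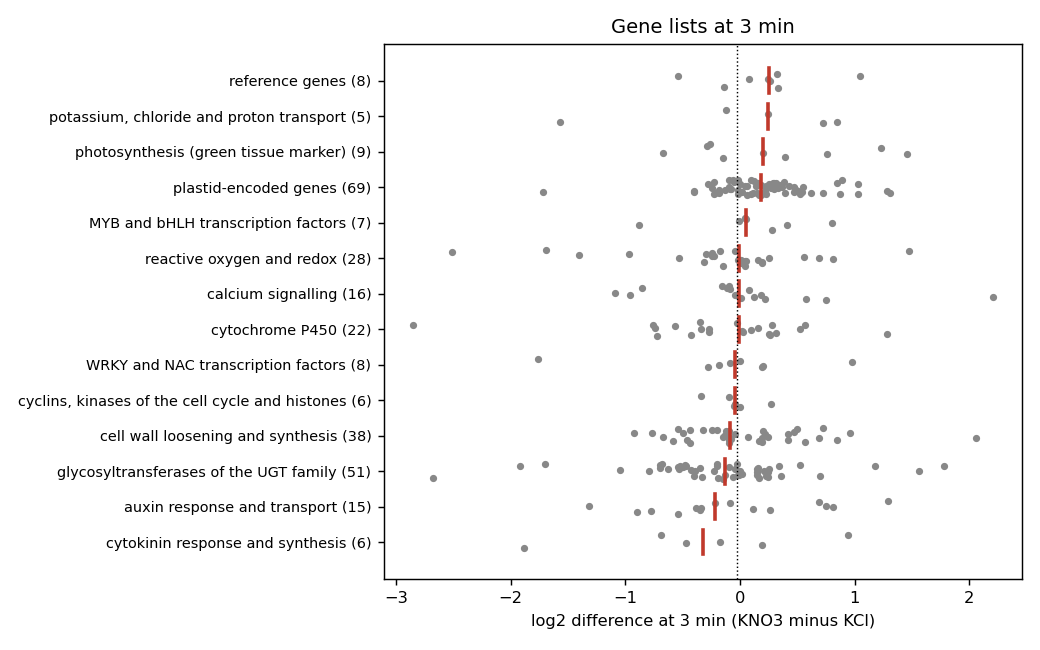
The log2 difference at 3 min, KNO3 minus KCl, of each probe set (grey points) of the 14 lists with 5 or more measured probe sets, whose number stands in brackets, with the median of each list as a red bar and the median of all probe sets, -0.03, as a dotted line. The medians lie between -0.32 for the cytokinin list and 0.25 for the reference genes.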

How the data were processed

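The authors deposited MAS5 signal intensities of 26 ATH1 arrays, a linear unit. Their notes name MAS5 without a version, and the target stated in the methods does not match the trimmed mean of 500 found here. All 26 columns were mapped to samples by name. Intensities were log2 transformed with no offset, 64 control probe sets were left out, and 22746 were tested with limma 3.58.1 in R 4.3.3, with 4 groups of 2 arrays, 4 residual degrees of freedom and an intensity-dependent prior worth 7.14 more, after Benjamini-Hochberg adjustment at 0.05. The number of arrays limits the precision. Genes came from the platform annotation, updated through RefSeq, which gave 13513 probe sets a single gene, left 8730 without one and gave 503 more than one, so many members of the 34 gene lists could not be matched and 25 lists had a measured member.

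Named genes were the calls with 1 gene, the 12 largest rises and falls (unadjusted p under 0.01, no overlap, mean signal over the 40th percentile), loci the study names as early, and up to 3 members of each list with the largest log2 difference. GSTU28, ARPN, AT1G52820 and the probe sets given by their ID were named after their values were seen. Groups, lists and comparisons were chosen with earlier results of these data known. Alternatives were an offset of 32, quantile normalization, a filter on dim probe sets, no intensity trend, the replicate number as a block, other sets of arrays for the spread, each array left out, and a sequential linear model rebuilt from the methods on linear signals of all 26 arrays (salt or salt by time at p under 0.01, then the 3 min difference).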

Additional observations from a re-analysis of the deposited data

Results flagged for a closer look

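For 10 probe sets the effect of KNO3 against KCl differed between 3 and 6 min by a test of the difference itself (limma, adjusted p under 0.05). The values are the log2 difference at 3 min less that at 6 min. They were 5.34 for 254098_at, 2.69 for AT1G52820, 2.31 for 247678_at and 2.11 for 267626_at. On the other side they were -3.50 for 253505_at, -3.09 for AT2G38870, -2.70 for 245038_at, -2.40 for ARPN, -2.07 for 264923_s_at and -1.77 for AT2G15220. ARPN, which encodes a plantacyanin, a small blue copper protein of the cell wall space, read 2332 and 3311 with KCl and 1467 and 1801 with KNO3 at 3 min, and 987 and 870 against 2813 and 2891 at 6 min. AT1G52820 read 874 and 650 against 1510 and 1911 at 3 min, and 1268 and 1971 against 602 and 505 at 6 min. Neither was called at 3 min alone, with adjusted p = 0.23 for ARPN and 0.13 for AT1G52820. The cause of these opposite differences was not tested.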

How the results depend on the processing

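The count of 27 calls at 3 min (9 higher, 18 lower) became 0 without an intensity trend (0 higher, 0 lower, 1577 at an unadjusted p under 0.05 in limma), 50 without dim probe sets (15 and 35, fewer tests to adjust for), 17 with the spread within the 4 arrays of 3 min (3 higher), 518 with the spread over all 26 arrays (316 and 202) and 938 with the sequential linear model rebuilt from the methods (329 and 609). With an offset of 32, 5 were higher. Leaving out single arrays gave 0 to 147 calls, 0 to 108 higher and 0 to 39 lower. The 10 calls of a difference between 3 and 6 min became 0 without an intensity trend (1080 at an unadjusted p under 0.05) and 16 with the replicate block, and ranged from 2 to 26 with single arrays left out. With the replicate block 33 passed at 3 min, 24 of the 27 among them; the numbers share no stated litter, batch or day, and deviations of same-numbered arrays correlated at -0.08 to 0.08. Of 210 values of the 14 named calls under 15 alternatives, 116 kept the call, 94 kept only the direction and 0 reversed. A reversal was possible only with quantile normalization, since the other alternatives could not turn the sign of pairs that do not overlap. The cause was not tested where none is given.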

Other observations

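Beyond the lists above, 28 families of genes with a shared symbol prefix and 8 or more probe sets, and the plastid-encoded genes, were looked at after values had been seen, and no test was made on them. The medians of the families ran from -0.22 for RALFL, small secreted peptides that can make the growth medium more alkaline, to 0.47 for NET, whose proteins bind actin and whose probe sets were mostly dim, with a median signal of 108. Of these families GSTU was the only one with a called member. The 22 TBL probe sets, of a family known for the acetylation of wall polysaccharides, had a median of 0.25, and 17 lay above 0. The 69 probe sets of plastid-encoded genes had a median of 0.18, with 49 above 0, 9 above without overlap and 2 below, beside 47.1%, 15.6% and 19.4% of all probe sets.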
